A study of Mus musculus with 16 samples.

Results

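Eicosanoids are signaling lipids made from arachidonic acid, and 10 genes that encode their enzymes were followed in CD11b+ brain cells: Alox5, Alox5ap, Alox12, Alox15, Ptgs1, Ptgs2, Hpgds, Tbxas1, Ltc4s, and Lta4h. They were chosen by name, with earlier results of these data known, and each was found once among the 24421 rows of the count table. All 10 had more than 10 counts in at least 4 libraries and were among the 14565 genes tested. Alox15 passed through its MAL and MAL-BG libraries, as no CON library held more than 10 counts of it.

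RNA-Seq was performed on 16 female C57BL/6J mice, 3 weeks old at the start, with 1 library per mouse. CON mice (n = 4) ate standard chow, MAL mice (n = 5) ate an isocaloric chow low in protein and fat for about 1 month, and MAL-BG mice (n = 7) ate the low protein and fat chow and were gavaged with a cocktail of live E. coli and Bacteroidales isolates, while CON and MAL mice received sham gavages. Cells were dissociated from the brain (cortex in the sample labels, whole cerebrum in the methods) and enriched with magnetic beads against CD11b, a surface integrin of microglia and other myeloid cells. Library totals were 10312703 to 13461574 counts for CON, 10864121 to 12819982 for MAL, and 14191791 to 18705202 for MAL-BG. Libraries carry the running number of their column in the deposited table, which matches no sample title. Among 10 microglia markers, such as Csf1r and P2ry12, all were detected in every group, with a summed level of 16801 to 27499 CPM (counts scaled to a common library size with the TMM method) in CON against 17472 to 29780 in MAL and 36846 to 50302 in MAL-BG. CON and MAL libraries also held choroid plexus transcripts, with 10 markers summing to 6466 to 54105 CPM across both groups and 1775 to 16592 in MAL-BG. MAL-BG library 5 stood apart in neutrophil transcripts, with 13571 CPM over 11 markers, against 485 to 3322 in the other libraries.

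Arachidonic acid is cut from membrane phospholipids and then enters one of several routes. Cyclooxygenases, encoded by Ptgs1 and Ptgs2, form the prostaglandin H intermediate that Tbxas1 turns into thromboxane and Hpgds into prostaglandin D. The 5-lipoxygenase encoded by Alox5 works with its membrane partner, encoded by Alox5ap, to make leukotriene A, which Lta4h hydrolyzes to leukotriene B and Ltc4s joins to glutathione as leukotriene C. Other lipoxygenases, encoded by Alox12 and Alox15, place oxygen elsewhere on the chain and contribute to lipoxins and related mediators. In the brain, Ptgs1 and Hpgds are known as microglial genes, whereas Ptgs2 is an inducible gene of neurons and activated myeloid cells.

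In MAL-BG, 4 of the 10 members were higher than in both other groups, namely Ptgs1, Tbxas1, Alox5ap, and Ltc4s, and Ptgs2 was lower in MAL-BG than in CON. Against CON, 4 of 10 members were called higher and 1 lower, where 33.1% of all tested genes were called (11.4% higher and 21.7% lower). Against MAL, 4 of 10 were called higher and 0 lower, where 30.4% of all genes were called (10.2% higher and 20.2% lower). Between MAL and CON, 0 of 10 were called, and 0.0% of all genes were. In that comparison edgeR and DESeq2 each called 0 genes, while edgeR gave 212 genes (1.46%) and DESeq2 241 genes an unadjusted p under 0.05, Ptgs2 and Alox12 among the former. A gene is called here when the quasi-likelihood test of edgeR gives a p under 0.05 after Benjamini-Hochberg adjustment over all tested genes and the log2 fold change exceeds 0.58 in either direction. The median log2 fold change of the 10 members was 0.71 against CON and 0.61 against MAL, and over all tested genes it was -0.04 and -0.03. These are bulk libraries, in which fewer cells of a type and less RNA per cell cannot be told apart. Both comparisons use the same MAL-BG libraries.

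**Figure D1:**
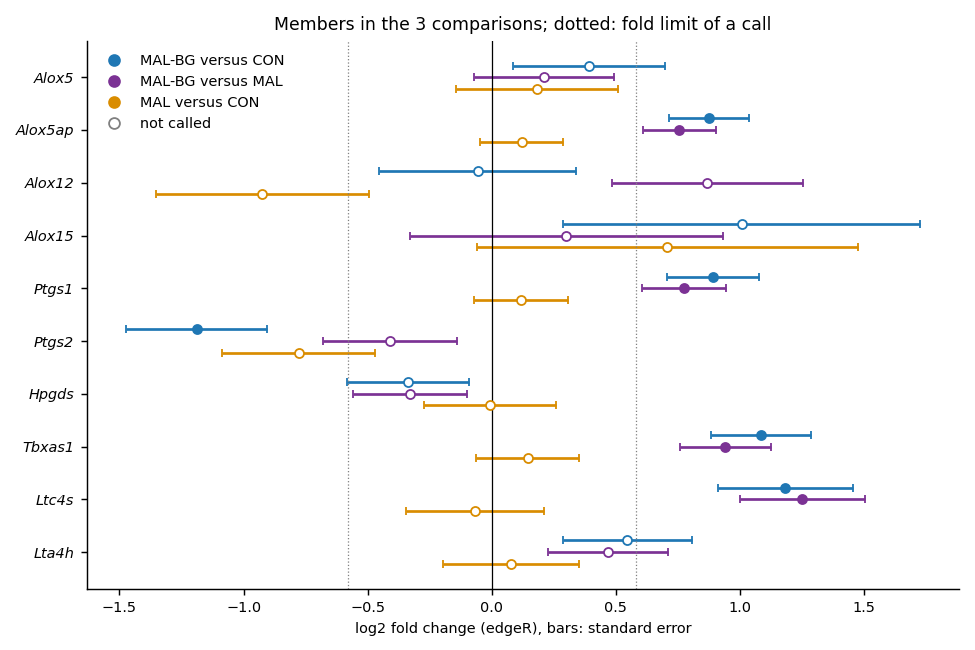
Log2 fold changes of the 10 members (edgeR) in the 3 comparisons, with standard errors as bars, filled circles for calls, and dotted lines at the fold limit of 0.58. Alox5ap, Ptgs1, Tbxas1, and Ltc4s have filled circles on the right in both MAL-BG comparisons, from 0.76 to 1.25, and Ptgs2 has one on the left against CON, at -1.19.

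Members differed widely in level. Per kilobase of annotated exon, Ltc4s was the most abundant in each group, with a mean of 229.7 ± 78.6 CPM per kb in CON (SD, n = 4), 219 ± 57.8 in MAL (n = 5), and 521 ± 169 in MAL-BG (n = 7). Alox5ap, Ptgs1, and Hpgds followed in each group, at 128, 117, and 69.9 CPM per kb in CON. In CON the ranges of Ltc4s and Alox5ap, of Alox5ap and Ptgs1, and of Ptgs1 and Hpgds overlapped, although Ltc4s exceeded Alox5ap and Ptgs1 exceeded Hpgds in each of the 4 libraries. In MAL and MAL-BG both of these pairs were free of overlap, while Alox5ap and Ptgs1 overlapped in every group. Hpgds lay above Tbxas1 without overlap in all 3 groups. Tbxas1 came next, at 12.2 ± 3.72 CPM per kb in the CON libraries, 13.5 ± 4.0 in MAL, and 25.9 ± 3.09 in MAL-BG. Ptgs2, Alox5, and Lta4h formed an overlapping middle tier in CON, at 9.34, 8.42, and 7.89 CPM per kb, and Ptgs2 was the lowest of these in MAL and MAL-BG, at 5.45 and 4.10. Alox12 was scarce, with a group mean of at most 1.95 CPM per kb, and Alox15 was at the edge of detection, with a group mean of at most 0.43.

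Promoter sequence is shown for the 4 members below because Ptgs1 and Ptgs2 make the same intermediate and moved apart, and Tbxas1 and Ltc4s had the largest rises. Each run is the stretch of 250 bases before the RefSeq start site on GRCm38.p6, read 5′ to 3′ on the gene's strand. For Tbxas1 this stretch lies inside the gene span given below, and for Ltc4s it reaches into that span. Motif positions in these genes therefore concern the RefSeq start, not the start of the span. Capitals mark 7 motifs searched on both strands. The core promoter was searched for the TATA box, written TATAAA, and the GC box, written GGGCGG, and for the box CCAAT that binds nuclear factor Y. Inducible elements searched were the E-box, written CACGTG, the core of the cAMP response element, written TGACG, and the site of AP-1, written TGANTCA with N for any base. The core of the site of PU.1, the myeloid transcription factor, was written GAGGAA. The regions are chr2:36230176-36230425 on the plus strand for Ptgs1, chr1:150099781-150100030 on the plus strand for Ptgs2, chr6:38918736-38918985 on the plus strand for Tbxas1, and chr11:50238533-50238782 on the minus strand for Ltc4s.
Ptgs1: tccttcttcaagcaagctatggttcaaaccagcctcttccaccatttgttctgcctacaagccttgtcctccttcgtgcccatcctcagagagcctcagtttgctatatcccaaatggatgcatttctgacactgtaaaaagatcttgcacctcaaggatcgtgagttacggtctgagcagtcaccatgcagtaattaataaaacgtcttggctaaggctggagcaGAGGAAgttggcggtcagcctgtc
Ptgs2: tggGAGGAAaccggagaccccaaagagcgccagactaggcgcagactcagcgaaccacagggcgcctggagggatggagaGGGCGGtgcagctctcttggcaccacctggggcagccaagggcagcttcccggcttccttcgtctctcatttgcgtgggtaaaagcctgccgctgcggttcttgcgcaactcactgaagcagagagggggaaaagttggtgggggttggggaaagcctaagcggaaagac
Tbxas1: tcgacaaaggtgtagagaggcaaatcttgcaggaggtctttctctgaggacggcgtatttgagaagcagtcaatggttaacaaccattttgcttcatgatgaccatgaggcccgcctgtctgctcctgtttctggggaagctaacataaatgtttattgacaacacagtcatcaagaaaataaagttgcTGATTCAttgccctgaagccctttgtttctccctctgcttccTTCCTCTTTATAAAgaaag
Ltc4s: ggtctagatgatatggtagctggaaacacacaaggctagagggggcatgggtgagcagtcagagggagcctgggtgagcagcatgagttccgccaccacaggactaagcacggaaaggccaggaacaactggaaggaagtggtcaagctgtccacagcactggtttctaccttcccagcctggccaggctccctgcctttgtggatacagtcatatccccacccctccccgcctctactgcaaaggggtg
GAGGAA or its complement was found 24 to 19 bases before the start in Ptgs1, 247 to 242 bases before it in Ptgs2, and 19 to 14 bases before it in Tbxas1. In Tbxas1 it is joined to TATAAA and its complement TTTATA, which overlap each other. No motif of the 7 was found in Ltc4s. RefSeq promoters were at hand for 8 of the 10 members (not for Alox5ap and Alox15), and 7 of these 8 held GAGGAA or its complement, as did 23.3% of all 32851 promoters of the same length. GGGCGG was found in 3 of the 8 (Alox5, Alox12, and Ptgs2) and in 32.7% of all promoters. A match of letters is not evidence that a factor binds there, and members were not picked by motif.

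The cyclooxygenases moved in opposite directions. Ptgs1, the constitutive cyclooxygenase (chr2:36230426-36252272, plus strand), measured 620.0, 386, 462, and 355 CPM in the 4 CON libraries, and 532, 392, 399.98, 675, and 474 CPM in the 5 MAL libraries. Across the 7 MAL-BG libraries it ranged from 640.1 to 1030.3 CPM, with a median of 868. No MAL-BG library was as low as any CON library, and the lowest MAL-BG library lay below the highest MAL library. Ptgs1 rose by 0.89 ± 0.18 on the log2 scale against CON (fold change ± SE, edgeR adjusted p = 0.00114) and by 0.77 ± 0.17 against MAL (edgeR adjusted p = 0.00181), and its log2 fold change between MAL and CON was 0.12 ± 0.19 (edgeR adjusted p = 0.999).

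Ptgs2, the inducible cyclooxygenase (chr1:150100031-150108227, plus strand), measured 36.8, 43.2, 39.7, and 51.4 CPM in CON, and 11.2, 19.7, 23.2, 26.6, and 44.0 CPM in MAL. The MAL-BG libraries ran from 13.4 to 30.9 CPM, with a median of 16.5. The MAL-BG libraries all lay below the CON libraries, and 4 of the 5 MAL libraries did so too, while MAL and MAL-BG overlapped. Ptgs2 fell by 1.19 ± 0.28 on the log2 scale against CON (edgeR adjusted p = 0.00303). Its log2 fold change was -0.41 ± 0.27 against MAL (edgeR adjusted p = 0.226) and -0.78 ± 0.31 for MAL against CON, where the unadjusted p of 0.0221 became 0.999 after edgeR's adjustment. Among the members, 3 lay higher in MAL-BG without overlap of the libraries against CON (Ptgs1, Tbxas1, and Alox5ap; 9.83% of all genes) and 1 lower (Ptgs2; 11.1% of all genes). Early response genes, such as Fos and Jun, moved beside Ptgs2 only in part. Between MAL and CON, 7 of 10 had positive log2 fold changes (median 0.29) and 0 were called, while Ptgs2 was at -0.78. In MAL-BG all 10 had negative log2 fold changes, and 6 were called lower against CON and 8 against MAL. Fos and Jun were not among those 6 (log2 fold changes -0.46 and -0.19, edgeR adjusted p = 0.113 and 0.645). The summed level of the 10 genes was 15983 to 31114 CPM for CON, 17041 to 37172 for MAL, and 6672 to 19516 for MAL-BG. Neuron markers were lower in MAL-BG too. Of 8 tested, 7 were called lower in each MAL-BG comparison, with median log2 fold changes of -2.56 against CON and -2.26 against MAL, and the 8 summed to 64.7 to 329.8 CPM for CON, 92.4 to 272 for MAL, and 21.5 to 90.8 for MAL-BG. The part of the early response and of neurons in the level of Ptgs2 was not tested.

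**Figure D2:**
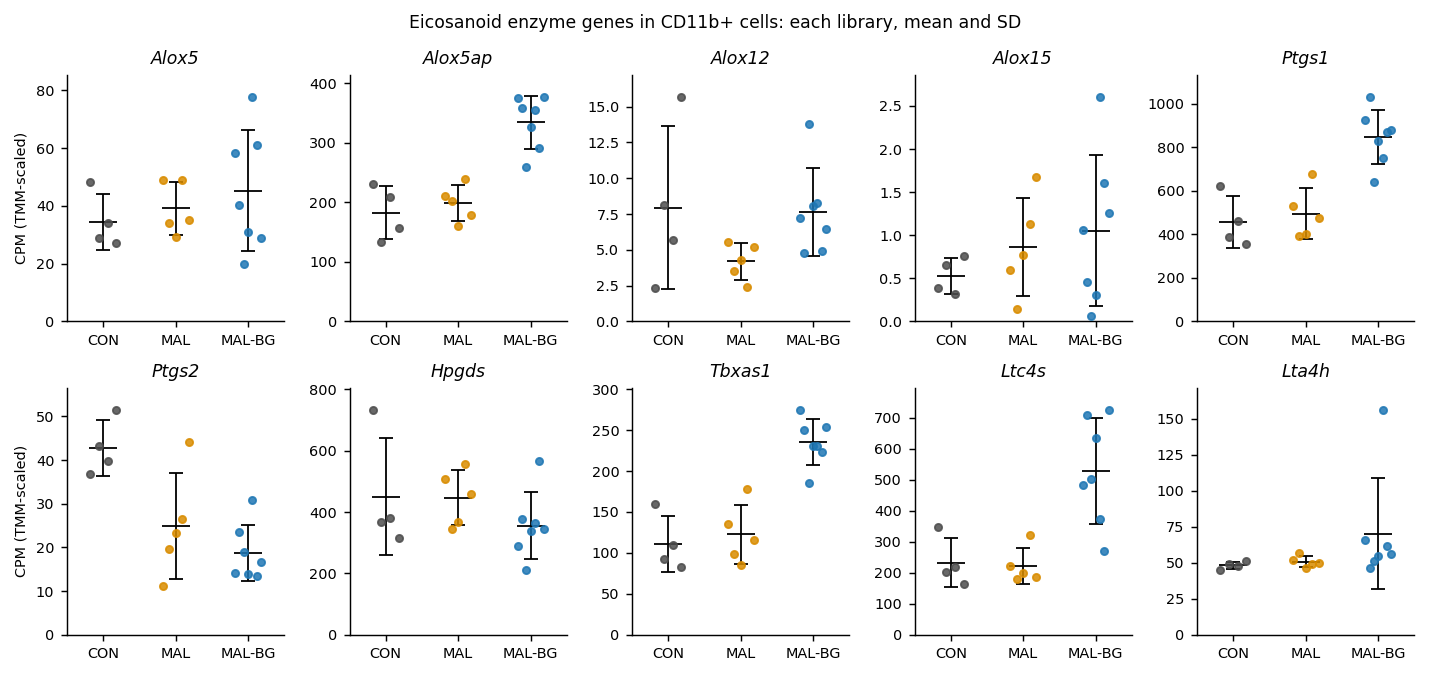
CPM of each member by library (points) with the group mean and SD (bars), on axes that start at 0. For Ptgs1, Tbxas1, and Alox5ap the 7 MAL-BG points sit above the 4 CON points, for Ptgs2 they sit below them, and for Lta4h 1 MAL-BG library sits at 156 CPM.

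The ratio of Ptgs2 to Ptgs1 counts within a library does not depend on how libraries are scaled. Ptgs2 was the less abundant in each library, and the log2 ratio averaged -3.39 ± 0.55 in CON (SD, n = 4), -4.41 ± 0.79 in MAL (n = 5), and -5.54 ± 0.54 in MAL-BG (n = 7). The CON libraries (-4.07 to -2.79) and the MAL-BG libraries (-6.03 to -4.60) did not overlap. This had to be so, because Ptgs1 and Ptgs2 each separated these groups, in opposite directions. The p of the test against CON was thereby fixed and adds no separate support. The difference was -2.15 between MAL-BG and CON, with a two-sided exact permutation p of 0.00303, which is the smallest that 4 against 7 libraries allow, and an adjusted p of 0.0121 over the 12 ratio tests. Between MAL-BG and MAL it was -1.13 (exact permutation test, adjusted p = 0.0568), and between MAL and CON -1.03 (exact permutation test, adjusted p = 0.114). Without MAL library 1, or without MAL-BG library 5, the difference to MAL passed the threshold (-1.42 and -1.28, exact permutation tests, adjusted p = 0.0182 and 0.0260).

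The enzymes that share the cyclooxygenase product also diverged. Tbxas1, thromboxane synthase (chr6:38875404-39084585, plus strand), measured 159, 92.5, 109, and 83.1 CPM in CON and 136, 99.1, 84.7, 178, and 116 CPM in MAL. MAL-BG libraries measured 186 to 274 CPM, with a median of 231. Every MAL-BG library exceeded every CON and MAL library. Tbxas1 rose by 1.09 ± 0.20 on the log2 scale against CON (edgeR adjusted p = 0.000525) and by 0.94 ± 0.18 against MAL (edgeR adjusted p = 0.000826). Between MAL and CON the log2 fold change was 0.14 ± 0.21 (edgeR adjusted p = 0.999). Against MAL, 2 members lay higher without overlap (Tbxas1 and Alox5ap; 7.86% of all genes) and 0 lower (8.95%), and between MAL and CON 0 members were free of overlap in either direction (0.412% and 0.302% of all genes).

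Hpgds, hematopoietic prostaglandin D synthase (chr6:65117293-65144908, minus strand), measured 732, 369, 382, and 315 CPM in CON and 509, 343, 368, 557, and 459 CPM in MAL. Its MAL-BG values lay between 210.2 and 566 CPM, with a median of 346. The groups overlapped broadly, and CON library 1 lay far above the other CON libraries. Scaled to all genes, Hpgds changed by -0.34 ± 0.25 on the log2 scale against CON (edgeR adjusted p = 0.276) and by -0.33 ± 0.23 against MAL (edgeR adjusted p = 0.253). The ratio of Hpgds to Tbxas1 in the same library, however, separated MAL-BG from the other groups. Scaled to all genes, the larger part of this shift was the rise of Tbxas1, by 1.09 against CON and 0.94 against MAL. The log2 ratio of Hpgds to Tbxas1 averaged 1.98 ± 0.17 in CON against 1.89 ± 0.18 in MAL and 0.55 ± 0.41 in MAL-BG. The lowest CON and MAL libraries were at 1.81 and 1.64, and the highest MAL-BG library was at 1.34. The difference was -1.43 against CON and -1.34 against MAL (exact permutation tests, p = 0.00303 and 0.00126, the smallest these designs allow, adjusted p = 0.0121 for both), and -0.09 between MAL and CON (exact permutation test, adjusted p = 0.533). In counts, Hpgds was 3.13 to 4.60 times as abundant as Tbxas1 in each CON and MAL library, and 1.05 to 2.53 times in each MAL-BG library.

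**Figure D3:**
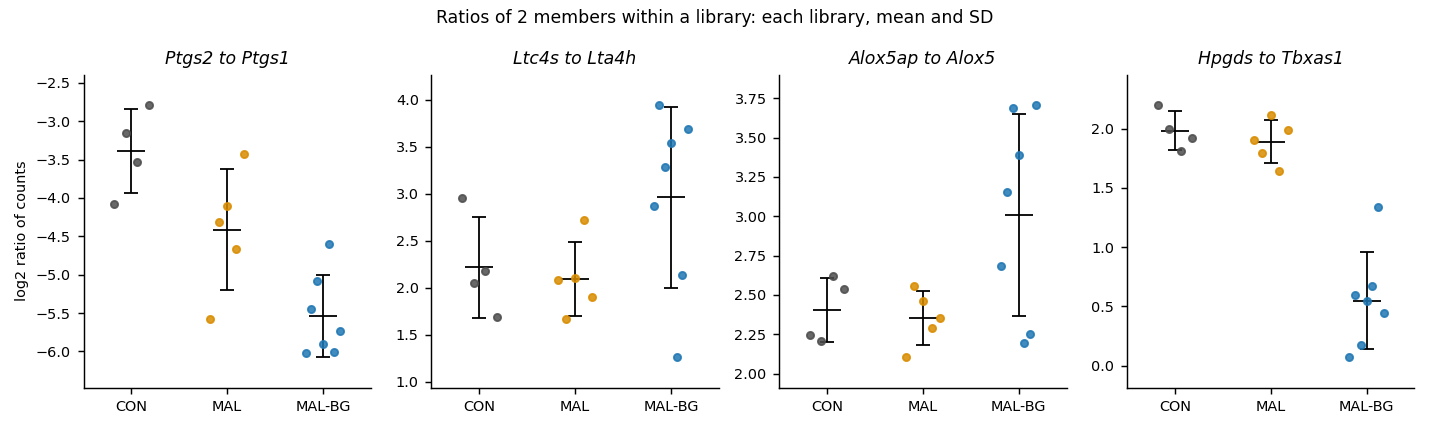
Log2 ratio of the counts of 2 members in each library (points), with the mean and SD of each group (bars). Ptgs2 to Ptgs1 and Hpgds to Tbxas1 are lower in all 7 MAL-BG libraries than in all 4 CON libraries, while Ltc4s to Lta4h and Alox5ap to Alox5 spread widely in MAL-BG and overlap the other groups.

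In the leukotriene route the partner protein and the glutathione enzyme rose, and the other enzymes did not pass the test. Alox5ap, the 5-lipoxygenase activating protein (chr5:149264767-149288153, plus strand), measured 230.0, 134, 209, and 157 CPM in CON and 210.4, 202, 160.2, 239, and 179 CPM in MAL. In MAL-BG it ranged from 259 to 377 CPM, with a median of 355. Every MAL-BG library exceeded every CON and MAL library. Alox5ap rose by 0.88 ± 0.16 on the log2 scale against CON (edgeR adjusted p = 0.000474) and by 0.76 ± 0.15 against MAL (edgeR adjusted p = 0.00079), and the log2 fold change was 0.12 ± 0.17 between MAL and CON. With mean log2 CPM scaling in place of TMM, plus offsets for gene length and GC content, the difference to MAL was 0.54 (edgeR adjusted p = 0.00644). This is under the fold limit of a call.

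Ltc4s, leukotriene C synthase (chr11:50236461-50238616, minus strand), measured 348, 203, 218, and 164 CPM in CON and 221, 179.7, 200.1, 323, and 186 CPM in MAL. Among MAL-BG libraries it spanned 271 to 725 CPM, with a median of 502. The lowest MAL-BG library lay below the highest CON and MAL libraries. Ltc4s rose by 1.18 ± 0.27 on the log2 scale against CON (edgeR adjusted p = 0.00241) and by 1.25 ± 0.25 against MAL (edgeR adjusted p = 0.000974). Among the members that rose it had the largest log2 fold change and the largest SD in MAL-BG (172 CPM). Mast cells are a known source of Ltc4s and Hpgds, and 8 of their markers summed to 20.7 to 30.5 CPM in the CON libraries, 15.9 to 22.2 in MAL, and 12.8 to 83.7 in MAL-BG, where 1 of 3 tested was called higher against CON and 2 against MAL. Their part in the Ltc4s level was not tested. Alox5ap, Ptgs1, Tbxas1, and Ltc4s each share 144 to 268 exon bases with an annotated antisense or unclassified transcript on the opposite strand, and the strand setting of the counting is not given in the sources used here.

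Alox5, the 5-lipoxygenase itself (chr6:116410077-116461178, minus strand), measured 48.4, 28.8, 34.0, and 27.0 CPM in CON and 48.9, 34.2, 29.1, 48.9, and 35.04 CPM in MAL. In MAL-BG it ranged from 20.1 to 77.7 CPM, with a median of 40.2. The MAL-BG range enclosed both other groups. For Alox5 the log2 fold change was 0.39 ± 0.31 against CON (edgeR adjusted p = 0.309) and 0.21 ± 0.28 against MAL (edgeR adjusted p = 0.565). The log2 ratio of Alox5ap to Alox5 averaged 3.01 ± 0.64 in MAL-BG, 2.40 ± 0.20 in CON, and 2.35 ± 0.17 in MAL. The differences of 0.61 and 0.66 did not pass (exact permutation tests, adjusted p = 0.177 and 0.114).

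Lta4h, leukotriene A hydrolase (chr10:93453411-93484875, plus strand), measured 44.8, 48.9, 48.1, and 50.9 CPM in CON and 52.2, 56.6, 46.5, 49.1, and 49.8 CPM in MAL. MAL-BG values ran from 46.0 to 156 CPM, with a median of 56.1. The value of 156 CPM belongs to MAL-BG library 5, the library rich in neutrophil transcripts, and the other 6 lay between 46.0 and 66.0. Lta4h had log2 fold changes of 0.55 ± 0.26 against CON (edgeR adjusted p = 0.0962) and 0.47 ± 0.24 against MAL (edgeR adjusted p = 0.123). Without library 5 these were 0.20 and 0.13 (edgeR adjusted p = 0.151 and 0.328), and without MAL-BG library 2 the difference to CON was called (0.69, edgeR adjusted p = 0.0407). Both differences of Lta4h were also called with mean log2 CPM scaling plus length and GC offsets (0.68 and 0.61, edgeR adjusted p = 0.0367 and 0.0410). Neutrophil markers were higher in MAL-BG as a list, with 10 of 11 tested called in each comparison and a summed level of 485 to 1226 CPM for CON, 521 to 1092 for MAL, and 591 to 13571 for MAL-BG. Alox5 had its highest value in library 5 too, and its log2 fold change against CON was 0.20 without it. The 4 risers moved little when that library was left out, with log2 fold changes against CON of 0.84 for Alox5ap, 0.90 for Ptgs1, 1.08 for Tbxas1, and 1.23 for Ltc4s. This does not remove neutrophil transcripts, as MAL-BG libraries 7 and 2 summed to 3322 and 2594 CPM. Of the 11 markers, 7 were higher in every MAL-BG library than in every CON library, and 2 were so against MAL. The part of neutrophils in the 4 risers was not tested. The log2 ratio of Ltc4s to Lta4h averaged 2.22 ± 0.54 in CON against 2.09 ± 0.39 in MAL and 2.96 ± 0.96 in MAL-BG, and its difference to MAL passed only without library 5 (0.87 with all libraries and 1.15 without, exact permutation tests, adjusted p = 0.158 and 0.0260).

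The remaining lipoxygenases were scarce and were not called. Alox12, the platelet-type 12-lipoxygenase (chr11:70241457-70255353, minus strand), measured 2.30, 8.16, 5.67, and 15.7 CPM in CON and 5.53, 3.51, 4.30, 2.42, and 5.18 CPM in MAL. In MAL-BG it ranged from 4.75 to 13.8 CPM, with a median of 7.25. CON spanned nearly the whole range seen, and the highest library of all was CON library 4. The log2 fold change was -0.06 ± 0.40 against CON, 0.87 ± 0.38 against MAL (edgeR adjusted p = 0.0757), and -0.93 ± 0.43 for MAL against CON (unadjusted p = 0.0458, edgeR adjusted p = 0.999). Another tool and another fit called the difference between MAL-BG and MAL, namely DESeq2 (0.89, adjusted p = 0.0404) and edgeR on the compared groups alone (0.86, adjusted p = 0.0283). So did edgeR without CON library 1 or 4 (0.86 for each) or without MAL-BG library 2 (1.01). Of 10 platelet markers, 7 were tested, 2 were called higher in each MAL-BG comparison, and Gp6 was at 0 in every library. Their summed level was 110.5 to 237 CPM in the CON libraries, 116 to 221 in MAL, and 203 to 268 in MAL-BG. Itgb3, Pf4, and Gp9 made up most of it, at means of 65.8, 49.8, and 20.2 CPM in CON, where the sum averaged 147.9. Itgb3 and Gp9 were the 2 called. Pf4 is also on the list of border macrophage markers, so the sum does not measure platelets alone. The highest platelet sums of CON and MAL were in CON library 1 and MAL library 4, which also had the highest border macrophage sums (585 and 767 CPM). These libraries had the lowest Alox12 of their groups, at 2.30 and 2.42 CPM. In MAL-BG the highest sum was in library 7, where Alox12 measured 6.46 CPM. The part of platelets in the Alox12 level was not tested.

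Alox15, the 12/15-lipoxygenase (chr11:70344152-70352031, minus strand), had 5, 7, 4, and 10 counts in the CON libraries and 7, 2, 9, 14, and 21 counts in the MAL libraries. In MAL-BG the counts ran from 1 to 48, and the CPM from 0.069 to 2.603 with a median of 1.06. The MAL-BG libraries held both the lowest and the highest level. The log2 fold change was 1.01 ± 0.72 against CON (edgeR adjusted p = 0.265) and 0.30 ± 0.63 against MAL (edgeR adjusted p = 0.721). Eosinophils are a known source of Alox15, and 6 of their markers, 2 of which could be tested and 0 called, summed to 14.8 to 29.7 CPM for CON, 18.2 to 30.1 for MAL, and 13.6 to 56.2 for MAL-BG. Their part in the Alox15 level was not tested.

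The rises of Ptgs1, Tbxas1, Alox5ap, and Ltc4s went along with a rise of microglia markers. All 10 markers had positive log2 fold changes in MAL-BG, 6 were called in each comparison, and the median was 0.81 against CON and 0.82 against MAL. Csf1r and P2ry12 had log2 fold changes of 0.37 and 0.38 against CON and were not called. The members were therefore also expressed relative to these markers within each library, once by their summed counts and once by their mean log2 count, an alternative chosen after the data had been seen. Relative to the summed counts, the log2 difference between MAL-BG and CON was -0.14 for Ptgs1, 0.07 for Tbxas1, -0.16 for Alox5ap, and 0.11 for Ltc4s, and none of the 4 passed (exact permutation tests, adjusted p = 0.2397 to 0.808 over 30 tests). Relative to the mean log2 count it was 0.10, 0.31, 0.08, and 0.35, and again none passed (exact permutation tests, adjusted p = 0.114 to 0.815). Against MAL the values ran from -0.21 to 0.25 by the sum and from 0.04 to 0.49 by the mean log2 count, with the same outcome. Misses of the threshold do not show that these genes followed the markers exactly.

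Ptgs2 and Hpgds fell relative to the microglia markers. The log2 difference of Ptgs2 between MAL-BG and CON was -2.30 by the summed counts and -2.06 by the mean log2 count (exact permutation tests, p = 0.00303 and adjusted p = 0.0303 for both), without overlap of the libraries. By the summed counts this outcome was fixed, as Ptgs2 and the marker sums each separated these groups, in opposite directions. For Hpgds the log2 difference was -1.36 and -1.13 against CON and -1.32 and -1.08 against MAL (exact permutation tests, adjusted p = 0.0303 for all 4), again without overlap. The difference of Ptgs2 to MAL was -1.30 and -1.05 and did not pass (exact permutation tests, adjusted p = 0.0852 and 0.152). Hpgds thus passed the permutation test per microglia marker count and was not called by edgeR in CPM, whereas Ptgs2 passed on both scales against CON. These tests have different criteria. Alox5, Lta4h, Alox12, and Alox15 did not pass on either scale.

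**Figure D4:**
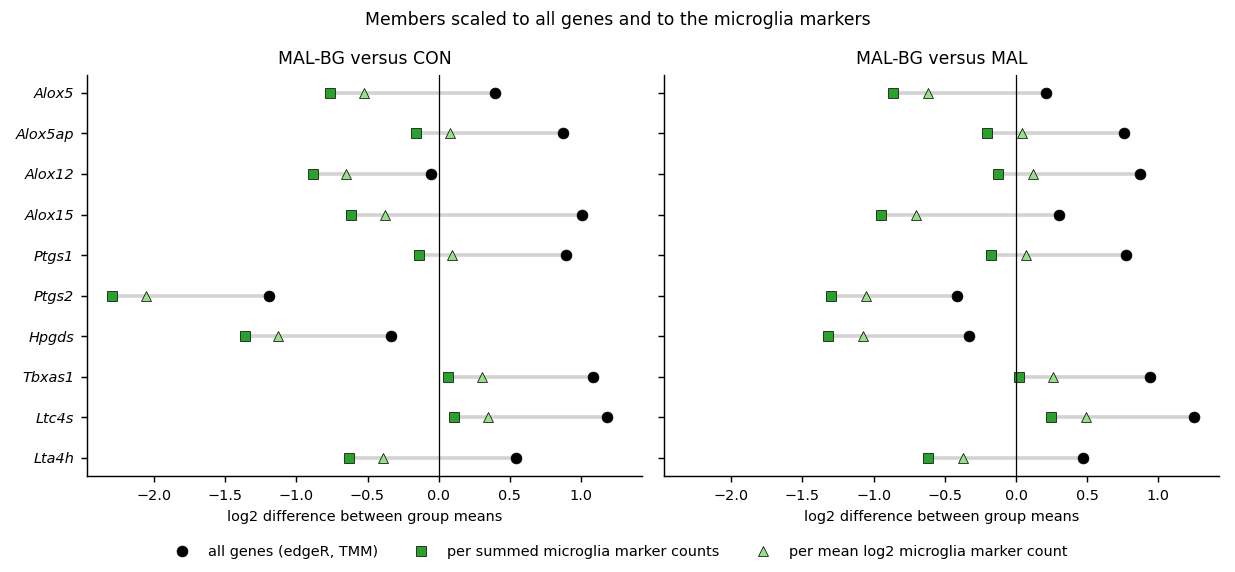
Log2 difference of each member in MAL-BG against CON (left) and against MAL (right), from the edgeR fit scaled to all genes (circles), relative to the summed counts of 10 microglia markers (squares), and relative to their mean log2 count (triangles). The circles of Ptgs1, Tbxas1, Alox5ap, and Ltc4s lie between 0.76 and 1.25 and their squares between -0.21 and 0.25, while Hpgds and Ptgs2 lie left of 0 on all 3 scales.

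Within groups, the members split by the libraries they followed. Correlations are given over the 16 libraries as deviations of log2 CPM from the group mean, as a description, and all points share the libraries' cell makeup and depth. Ptgs1 and Tbxas1 went together most closely (r = 0.94), Alox5ap followed Tbxas1 (r = 0.83), and Alox12 ran opposite to Ptgs1 (r = -0.78). The summed microglia markers followed Tbxas1 (r = 0.95), Ptgs1 (r = 0.93), and Alox5ap (r = 0.80). They followed Hpgds (r = 0.64), Ltc4s (r = 0.62), and Alox5 (r = 0.43) less closely. Alox15 (r = 0.09), Lta4h (r = -0.26), and Ptgs2 (r = -0.31) did not rise with them. Alox12 ran opposite to these markers (r = -0.72). The genes most like each member differed accordingly. Ptgs1 was most like Lair1, Ptpro, and Ttyh3 (r = 0.97 each), Tbxas1 most like Hmga2-ps1, Siglece, and Sgpl1 (r = 0.96 each), and Alox5ap most like H2-DMa, Ly9, and Asl (r = 0.91 to 0.92). Hpgds was most like Srgap2, Frmd4a, and Eef2k (r = 0.97 to 0.98), and Ltc4s most like Srsf9, Cdk9, and Hnrnpa1 (r = 0.97 to 0.98). Alox5 was most like Csf2ra, Myo1f, and Apobr (r = 0.95 each), and Lta4h most like Tfdp1, Hmgn2, and Mcm5 (r = 0.91 to 0.94). Alox12 was most like Foxc1, Sox17, and Ptprb (r = 0.92 to 0.93), genes of vascular and meningeal cells, and 9 endothelial and mural markers summed to 661 to 2449 CPM in CON against 634 to 1704 in MAL and 1370 to 3979 in MAL-BG. Ptgs2 was most like 1700037H04Rik, Gadd45b, and Map2k3 (r = 0.81 to 0.85), and Alox15 most like Nlrp3, Litaf, and Il1a (r = 0.85 to 0.86).

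To place the members, 57 other genes of arachidonate handling were listed by role, and 46 were tested. Against CON 10 were called higher and 5 lower (32.6%), and against MAL 8 were called higher and 10 lower (39.1%), beside 33.1% and 30.4% of all genes. Between MAL and CON 0 were called. The median log2 fold change of the 46 was 0.05 against CON and 0.16 against MAL.

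Among genes that release arachidonate or its precursors, 10 were tested, and 4 were called higher and 2 lower against CON (3 and 3 against MAL). Pla2g15, a lysosomal phospholipase, rose from a mean of 372 ± 132 CPM in CON and 370.1 ± 77.8 in MAL to 789 ± 136 in MAL-BG, or by 1.09 on the log2 scale in both comparisons (edgeR adjusted p = 0.000629 and 0.000352). Daglb, a diacylglycerol lipase that feeds arachidonate to the cyclooxygenases in microglia, rose by 1.04 and 0.94 on the log2 scale, to 324 ± 58.5 CPM. Pla2g5, a secreted phospholipase, fell by 3.004 and 2.76, to 2.83 ± 2.57 CPM, and Faah, which degrades anandamide, fell by 1.03 in both. The call of Faah was lost without CON library 3 or 4 against CON and without MAL library 3 against MAL (log2 fold changes -0.92, -0.97, and -0.88). Both enzymes that return arachidonate to phospholipids and were called, Lpcat2 and Lpcat3, rose, by 0.93 and 0.78 against CON and by 0.84 and 0.80 against MAL, of 4 tested.

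Of 11 other synthases tested, Ptgds and Ggt5 were called against CON. Ptgds, the lipocalin-type prostaglandin D synthase of choroid plexus, meninges, and oligodendrocytes, fell from 264 ± 119 CPM in CON and 254 ± 112 in MAL to 82.2 ± 35.7 in MAL-BG (log2 fold changes -1.68 and -1.63, edgeR adjusted p = 0.00145 and 0.00136). Ptgds fell beside the choroid plexus markers, all 10 of which were called lower against CON and 9 against MAL (median log2 fold changes -2.41 and -2.06). Of 6 meningeal fibroblast markers, 1 was called lower against CON and 2 against MAL (medians -0.52 for both). Of 6 oligodendrocyte markers, 3 were called higher and 1 lower in each comparison (medians 0.54 and 0.50). The part of these cells in the fall of Ptgds was not tested. Ggt5, a peptidase that trims leukotriene C, rose by 0.94 and 0.90. Dpep2 and Ggt1, of the same trimming route, fell against MAL alone (log2 fold changes -1.13 and -0.99), and Ggt1 measured 1.65 ± 0.651 CPM in MAL-BG. The Ggt1 call was lost without any single one of MAL libraries 1, 2, 3, and 5 and MAL-BG libraries 1, 2, 5, 6, and 7 (log2 fold changes -1.01 to -0.88). With all libraries kept, the Ggt1 call was also lost with no filter (-0.97) and after thinning to the smallest total (-0.96). Of 8 genes of breakdown and transport, only Ephx2, which hydrolyzes epoxides of arachidonate, was called, and it fell by 2.45 against CON and 1.98 against MAL, to 1.59 ± 1.32 CPM. Astrocyte markers fell beside Ephx2, as 4 of 6 were called lower in each MAL-BG comparison, with median log2 fold changes of -2.22 and -2.04 and summed levels of 233 to 444 CPM for CON, 260.4 to 421 for MAL, and 128 to 201 for MAL-BG. Their part in its fall was not tested.

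Receptors moved in both directions. Ptger4, a prostaglandin E receptor, fell from 36.2 ± 16.1 CPM in CON and 43.1 ± 16.6 in MAL to 9.84 ± 3.42 in MAL-BG, with no overlap (log2 fold changes -1.88 and -2.13, edgeR adjusted p = 0.000123 and 3.72e-05). Ptger3, another receptor of the same ligand, rose from 3.67 ± 0.406 and 4.34 ± 1.26 to 7.52 ± 1.14 CPM, also with no overlap (log2 fold changes 1.03 and 0.79). Ptger1 and Ptger2 were called lower against MAL alone (log2 fold changes -2.43 and -0.90) at under 1 CPM in MAL-BG on average. The Ptger1 call rested on MAL library 4 at 15.7 CPM, as without it the log2 fold change was -0.99 (edgeR adjusted p = 0.0703), and the Ptger2 call was lost without any single one of MAL libraries 1, 2, 4, and 5 and MAL-BG libraries 1, 2, 3, 4, and 7 (log2 fold changes -0.94 to -0.82). With all libraries kept, the Ptger2 call was also lost with no filter (-0.89) and with mean log2 CPM scaling plus length and GC offsets (-0.79). Cmklr1, a receptor of the lipid mediator resolvin E and of chemerin, rose from 91.5 ± 14.5 to 139 ± 30.2 CPM against CON (log2 fold change 0.60). It fell under the fold limit of 0.58 without CON library 2 (0.55), CON library 4 (0.53), or MAL-BG library 6 (0.52). With all libraries kept, it also did so after thinning to the smallest total (0.577) and with mean log2 CPM scaling plus length and GC offsets (0.531). Fpr2, a lipoxin and formyl peptide receptor, was called higher in both comparisons (1.99 and 1.54), with 38.5 CPM in its highest MAL-BG library and a median of 5.93. Without MAL-BG library 5 the Fpr2 difference to MAL was 0.87 and not called (edgeR adjusted p = 0.0780), and the call was lost as well without MAL library 1, 2, 3, or 5 (1.47 to 1.56).

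**Figure D5:**
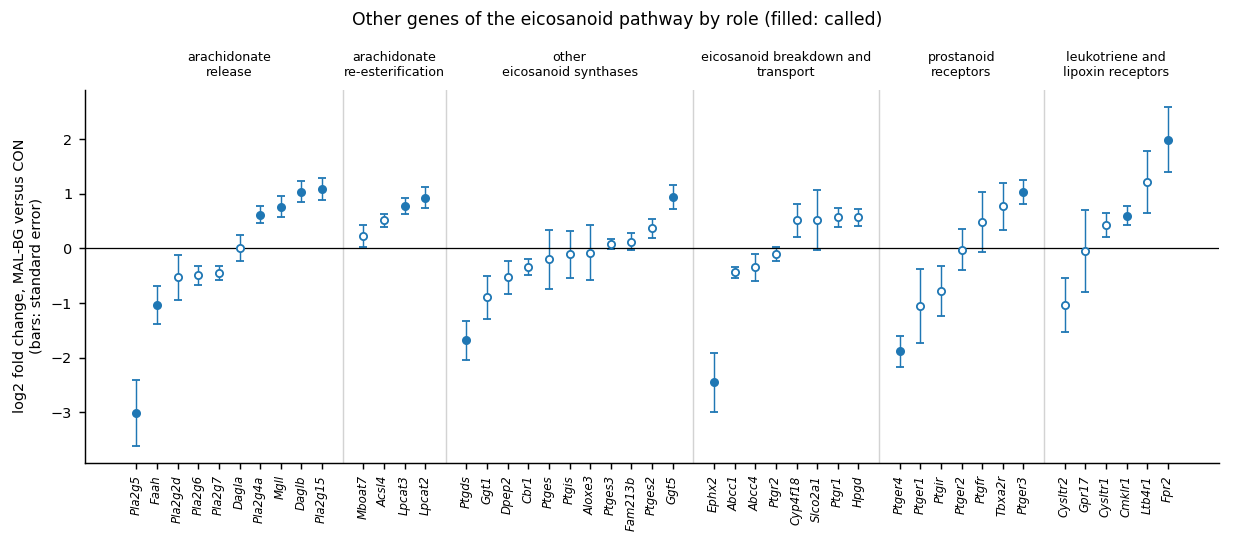
Log2 fold changes between MAL-BG and CON (edgeR, bars are standard errors) of the 46 tested genes of arachidonate handling, grouped by role, with calls filled. The lowest points are Pla2g5 at -3.004, Ephx2 at -2.45, and Ptger4 at -1.88, and the highest is Fpr2 at 1.99.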

How the data were processed

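The authors made stranded poly(A) libraries from CD11b+ cells, used STAR for alignment of paired reads to GRCm38.p6 and HTSeq for counting on genes, and deposited the raw counts. Counting mode and annotation are not given in the sources used here. The columns of the table name the group and a running number. The study's batch term was not fitted, because the batch of a library is not given in the labels, so effects of batch were not separated from those of group here.

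Genes above 10 counts in 4 or more libraries (14565) entered a quasi-likelihood fit in R 4.3.3 (edgeR 4.0.16, TMM scaling, all 3 groups in 1 fit, Benjamini-Hochberg adjustment). Calls needed both a p under 0.05 after adjustment and a log2 fold change beyond 0.58 in either direction. Ratios used counts plus 0.5, and their group means were compared with exact permutation tests (two-sided). CPM per kb used the exon union of GENCODE, and promoters are from RefSeq. Replicates differed by more than sampling noise (lowest chi-square 9.57 per degree of freedom), so each library counted as 1 replicate, from 1 mouse.

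The members and the gene lists were chosen with earlier results of these data known. The text names all members, up to 4 called genes with the largest log2 fold change for each pathway role and comparison, and the 3 genes most like each member in within-group correlation at a mean of at least 10 CPM. Fos, Jun, Csf1r, and P2ry12 were named outside this rule as familiar markers, and Itgb3, Pf4, and Gp9 as the largest parts of the platelet sum. Alternatives were other scalings and filters, DESeq2 1.42.0, no fold limit, fits of the compared groups only, and thinning to 10312703 counts. Others were mean log2 CPM scaling with length and GC offsets, and each library left out in turn. The edgeR fit was tested on simulated data, and the other steps were not. Values of 1 gene of the marker lists are not reported here.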

Additional observations from a re-analysis of the deposited data

Results flagged for a closer look

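Of 42 sets of values examined (10 members and 4 ratios in 3 groups), 4 had a library far from the rest of its group, and chance alone flags about 1 set in 20. Lta4h measured 156 CPM in MAL-BG library 5, where the next highest MAL-BG library measured 66.0, and this library also held the most neutrophil transcripts. Hpgds measured 732 CPM in CON library 1, well above the other CON libraries, which measured 315 to 382 CPM. Ltc4s measured 323 CPM in MAL library 4, against 179.7 to 221 CPM in the other MAL libraries. Alox12 measured 13.8 CPM in MAL-BG library 3, against 4.75 to 8.30 CPM in the other MAL-BG libraries. MAL-BG library 3 was also the lowest of its group in Alox5ap, Ptgs1, Tbxas1, and Hpgds, and had the lowest sum of microglia markers (36846 CPM). This library also had the highest sums of its group for choroid plexus (16592 CPM) and endothelial and mural markers (3979 CPM). CON library 1 and MAL library 4 had the highest sums of their groups for microglia (27499 and 29780 CPM) and border macrophage markers (585 and 767 CPM), and the lowest for choroid plexus (13929 and 6466 CPM). The part of cell makeup in these values was not tested.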

How the results depend on the processing

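Across the other scalings, filters, and tests, 5 or 6 members were called against CON, 4 or 5 against MAL, and 0 between MAL and CON, and leaving out single libraries gave the same ranges. Pathway counts ran from 14 to 21 against CON and from 17 to 25 against MAL, the highest without a fold limit, and from 14 to 20 and from 15 to 20 when single libraries were left out. With medians in place of means, 3 ratio differences kept their direction and no longer passed (exact permutation tests), at -2.38 for Ptgs2 to Ptgs1 against CON (adjusted p = 0.0505) and at -1.41 and -1.36 for Hpgds to Tbxas1 against CON and MAL (adjusted p = 0.118 and 0.0505). In groups free of overlap, exchanging the adjoining libraries leaves both medians unchanged, so a test of medians cannot reach the smallest p.

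Leaving out single libraries gave -1.42 to -0.88 for Ptgs2 to Ptgs1 against MAL, and 0.70 to 1.15 for Ltc4s to Lta4h against MAL. Between MAL and CON it gave -0.30 to 0.12 for Ltc4s to Lta4h, -0.11 to 0.022 for Alox5ap to Alox5, -0.0067 to 0.24 for Alox5ap, -0.022 to 0.29 for Ptgs1, -0.029 to 0.36 for Tbxas1, -0.14 to 0.32 for Hpgds, and -0.24 to 0.18 for Ltc4s. It gave -0.39 to 0.50 for Alox12 against CON and -0.11 to 0.69 for Alox15 against MAL. Between MAL and CON, Hpgds turned to 0.0020 with upper-quartile scaling and to 0.0081 in a fit of these groups only. Ltc4s turned to 0.064 with mean log2 CPM scaling plus length and GC offsets. None of the reversed differences was called.

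Relative to the summed counts of the microglia markers, values below 0 replaced values above it against CON and MAL for Alox5 (-0.76 and -0.86), Alox5ap (-0.16 and -0.21), Alox15 (-0.62 and -0.95), Ptgs1 (-0.14 and -0.17), and Lta4h (-0.63 and -0.62), and also for Alox12 against MAL (-0.13) and Lta4h between MAL and CON (-0.015). Relative to their mean log2 count this was so for Alox5 (-0.53 and -0.62), Alox15 (-0.38 and -0.70), and Lta4h (-0.39 and -0.37, and -0.022 between MAL and CON). These scalings change the reference from all genes to the markers, which were higher in MAL-BG.

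No paired analysis was possible because the columns of the table carry running numbers that match no sample title and pair no mice across groups. The 4 CON libraries limit the exact tests to p = 0.00303 against MAL-BG and p = 0.00794 against MAL. Alox15 had 1 to 48 counts per library.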
